A study of Mus musculus with 4 samples.

Results

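The genes described here are 10 members of the fibroblast growth factor (FGF) pathway: the receptors Fgfr1, Fgfr2 and Fgfr3, the ligands Fgf1 and Fgf2, the feedback inhibitors Spry1, Spry2 and Spry4, and the transcription factors Etv4 and Etv5. They were chosen by symbol, with each symbol matching 1 of the 31053 genes listed in the files, and their levels were followed across marker-gated cell states and ages of the postnatal dorsal ventricular-subventricular zone (V-SVZ). This zone is the germinal layer of the lateral ventricle, and its dorsal wall was microdissected from untreated wild-type OF1 mice at postnatal days 2, 12 and 22 (P2, P12 and P22). Viable single cells were sequenced by 10x Genomics droplet chemistry, which tags each captured RNA molecule with a unique molecular identifier (UMI). There was 1 library at P2, 1 at P22 and 2 at P12, the latter from independent experiments. Animals were pooled (2 mice by time point), so that age and library cannot be told apart at P2 and P22, and the labels give male mice at every age whereas the methods also name a female at P2.

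FGF ligands bind receptor tyrosine kinases together with heparan sulfate, and the activated receptors signal through the Ras and MAP kinase cascade. Transcription of the Sprouty genes and of the ETS factors Etv4 and Etv5 is among the classical outputs of this cascade, and the Sprouty proteins in turn restrain it. In the germinal zone, FGF2 together with EGF is the mitogen used to grow neural stem cells in culture. Other receptor tyrosine kinases, EGFR and PDGFRA among them, feed the same cascade.

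The libraries held 4608 to 8617 barcodes, of which 4027 (P2), 7004 (P12 replicate 1), 4596 (P12 replicate 2) and 4230 (P22) cells were kept, with median depths of 11853.5 to 14303 UMIs per cell. Each pair of libraries shared 5 to 12 barcodes, at most 0.205% of the smaller one. Cells were assigned to states by the study's combinations of marker genes, none of which is one of the 10 genes. The gates took quiescent neural stem cells (qNSC, 102, 731, 316 and 92 cells in library order), activated stem cells (aNSC, 70, 696, 535 and 122 cells), transit-amplifying progenitors (TAP, 46, 234, 94 and 110 cells), neuroblasts (NB), oligodendroglial cells (OL), astrocytes (Astro) and, by added gates, glutamatergic progenitors (GLU), ependymal, endothelial and microglial cells. They assigned 24.4 to 58.2% of kept cells, and the P12 replicate 2 library stood apart with 13 NB and 2 OL cells. Levels are given as CPM, the UMIs of a gene per 1000000 UMIs of all cells of a state in a library, and exact intervals cover counting error only. Marker genes that the gates did not use went with the names only in part. Among qNSC, aNSC, TAP, NB, OL and Astro, the lists for NB, OL and Astro were highest in their own state in each library with at least 20 of its cells, but the quiescence genes summed to 35777 to 49436 CPM in Astro against at most 30766 CPM in qNSC. At P12 and P22 the activation genes were higher in TAP (5448 to 5685 CPM) than in aNSC (3965 to 4229 CPM), and the TAP genes reached 2676 to 5338 CPM in NB against 1899 to 2301 CPM in TAP of the same libraries, so that these names are those of the gates. In qNSC at P2 the summed level of 10 quiescence genes was 14535 CPM against 29270 to 30766 in the other libraries, and Fabp7, a gene of immature radial glia, reached 15337 of the 16283 CPM of the activation genes. The orders of states given below rest on tests between states, in which the share of all genes that passed was 54.8, 66.4, 54.0, 66.9, 55.2 and 15.3% for qNSC against aNSC, TAP, GLU, NB, OL and Astro. For aNSC it was 15.0, 23.4, 48.2, 37.4 and 47.2% against TAP, GLU, NB, OL and Astro, and for Astro 58.8, 50.2, 59.7 and 45.1% against TAP, GLU, NB and OL. Among the others it was 25.6% for GLU and TAP, 40.2% for NB and TAP, 49.5% for OL and TAP, 21.3% for GLU and NB, 31.1% for GLU and OL and 46.0% for NB and OL.

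Spry1 and Etv5, which rose together from quiescent to activated stem cells in the data below, and Fgfr2, which fell, are shown with the 250 bases before a transcription start. The sequences are from RefSeq (GRCm38.p6), whose table held windows for 6 of the 10 genes, and run 5′ to 3′ on the strand of the gene. Capitals mark CCAAT and its reverse complement ATTGG, searched on both strands. Spry1 (chr3:37639697-37639946, plus strand) and Etv5 (chr16:22439571-22439820, minus strand) are followed by Fgfr2 (chr7:130266809-130267058, minus strand).
Spry1: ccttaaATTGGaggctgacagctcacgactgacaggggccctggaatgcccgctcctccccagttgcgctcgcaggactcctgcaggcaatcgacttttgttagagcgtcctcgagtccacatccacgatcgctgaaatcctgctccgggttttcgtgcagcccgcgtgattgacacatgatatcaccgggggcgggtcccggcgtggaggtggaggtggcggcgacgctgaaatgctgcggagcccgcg
Etv5: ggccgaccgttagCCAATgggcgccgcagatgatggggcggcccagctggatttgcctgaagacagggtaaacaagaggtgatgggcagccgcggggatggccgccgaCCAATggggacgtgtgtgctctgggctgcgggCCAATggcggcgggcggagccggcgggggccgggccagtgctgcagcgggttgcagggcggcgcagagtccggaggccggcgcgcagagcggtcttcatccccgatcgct
Fgfr2: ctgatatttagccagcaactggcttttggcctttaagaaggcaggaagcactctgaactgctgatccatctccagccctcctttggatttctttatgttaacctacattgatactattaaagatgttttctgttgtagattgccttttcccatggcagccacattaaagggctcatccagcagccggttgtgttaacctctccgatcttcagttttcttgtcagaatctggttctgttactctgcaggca
The Etv5 window held 27 CpG dinucleotides at a GC content of 71.2% and the Spry1 window 23 at 62.4%, against 2 at 44% for Fgfr2 and medians of 6 and 52.4% over 32851 windows. Etv5 had 3 CCAAT motifs, a number reached by 2.79% of all windows, and Spry1 had 1, whereas 33.8% of all windows held at least 1. The windows not shown do not follow this split, with 20 CpG dinucleotides, a GC content of 62.4% and 0 CCAAT motifs for Fgf2, which fell, and 18, 62% and 1 for a second start of Etv5. CCGGAA, a strict form of the ETS motif, was found in none of the 8 windows of the 6 genes and in 12.0% of all windows. The shorter core GGAA, which the Spry1 and Fgfr2 windows above hold, was not counted. A match, or its lack in these windows, describes the letters only.

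In the annotation (GENCODE M21, GRCm38), Fgfr1 lies at chr8:25513654-25575718, Fgfr3 at chr5:33721674-33737068, Spry2 at chr14:105891947-105896819, Etv4 at chr11:101769742-101785371 and Etv5 at chr16:22381309-22439719, all as protein-coding genes. Fgf2 (chr3:37348346-37410108) and Spry1 (chr3:37639947-37644598) are neighbours on 1 strand with a gap of 229.839 kb. Fgf1 and Spry4 are likewise neighbours on 1 strand, with a gap of 237.258 kb. Annotated exons of Fgf2 overlap those of Nudt6 on the opposite strand and of Gm43439 on the same strand, and exons of Fgfr2 overlap those of Ctbp2 on the same strand, so reads of these pairs may not be fully separated. Fgfr1, Fgfr3 and Spry1 overlap non-coding or unclassified genes on the opposite strand (Gm16159, G630022F23Rik and Gm42922).

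**Figure D1:**
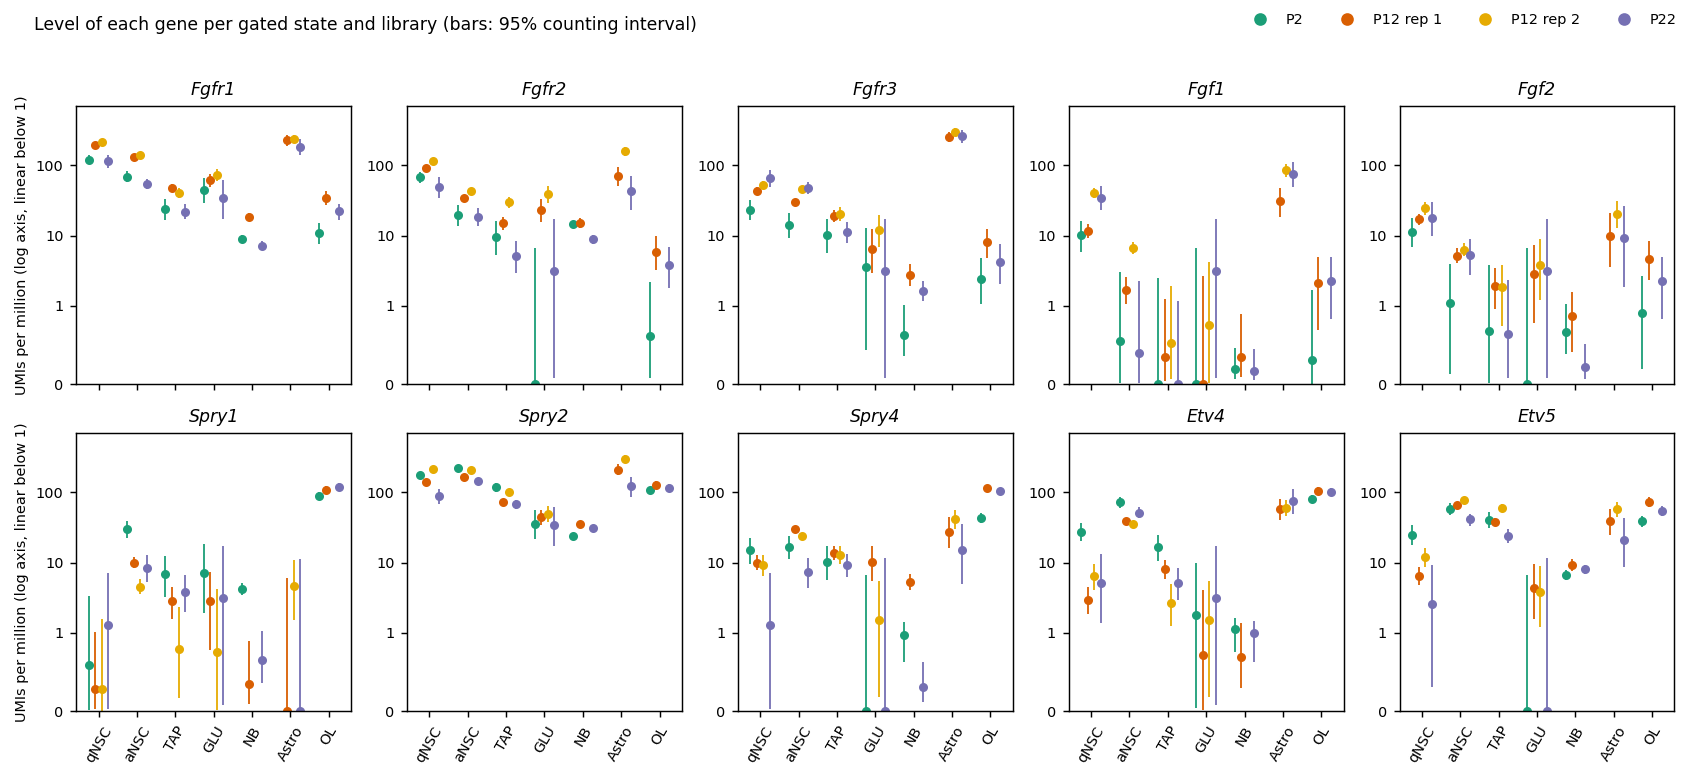
Level of each gene (CPM, log axis that is linear below 1) in 7 gated states, with 1 point per library and bars for the 95% Poisson interval. The receptors and ligands sit highest in qNSC and Astro, Spry1 and Spry4 in OL, and Etv5 has its levels above 20 CPM in aNSC, TAP, Astro, OL and, at P2 alone, qNSC.

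The 3 receptors were highest in the quiescent and astrocytic states and lowest in neuroblasts or oligodendroglial cells. Fgfr1, a receptor tyrosine kinase of the family, was at 120 (P2), 194 (P12 replicate 1), 213 (P12 replicate 2) and 113 CPM (P22) in qNSC, at 68.3, 130, 140 and 54.7 CPM in aNSC, and at 24.0, 48.1, 39.9 and 21.9 CPM in TAP. Within every library the 3 states kept this order, and the P12 libraries were the higher ones in each state. The fitted order of Fgfr1 over states was Astro, qNSC, aNSC, GLU, TAP, OL and NB, in which Astro and qNSC (adjusted p = 0.178) and GLU and TAP (adjusted p = 0.0916) were not separated by the edgeR test. Fgfr1 UMIs were found in 66.3 to 88.0% of qNSC cells, and in 43.8 to 65.6% when every cell was thinned to 5000 UMIs. In the 71 microglial cells of P22, which served as background in that library, 0 Fgfr1 UMIs were found, which allows a share of up to 4.23% at a median depth of 9359 UMIs, close to the 8418 UMIs of qNSC of that library. In P12 replicate 2, 3 of 10 microglial cells (30%) held an Fgfr1 UMI, against 88.0% of qNSC.

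Fgfr2 reached 67.4, 91.0, 115 and 48.9 CPM in qNSC in the same library order, and 19.8, 34.5, 43.2 and 18.5 CPM in aNSC, so that the lowest qNSC library lay above the highest aNSC library. Its order was qNSC, Astro, aNSC, NB, GLU, TAP and OL, where the only neighbours that differed were Astro and aNSC (adjusted p = 0.00127) and TAP and OL (adjusted p = 0.00182). OL cells held 2, 14 and 10 Fgfr2 UMIs at P2, P12 replicate 1 and P22, or 0.61, 5.93 and 3.80 CPM. Fgfr3, which marks astroglial cells in many brain regions, was instead highest in Astro, at 250, 299 and 258 CPM (P12 replicates 1 and 2, P22). In qNSC it was at 23.3, 43.4, 52.6 and 65.7 CPM and in aNSC at 14.3, 30.5, 45.8 and 47.5 CPM. The 2 stem cell states overlapped for Fgfr3, with aNSC lower inside each library, and the lowest Astro library was above every qNSC library.

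Both ligands were detected mainly in qNSC and Astro. Fgf1, an FGF without a secretion signal that binds all FGF receptors, was at 10.1, 11.7, 40.0 and 34.8 CPM in qNSC, with the P12 replicates differing from each other. It fell to 0.55, 1.68, 6.72 and 0.40 CPM in aNSC, and TAP held 0, 2, 2 and 0 UMIs of it, where 0 of 46 cells at P2 allows a share of cells with a UMI at this depth, not of cells expressing Fgf1, of up to 6.52%. Fgf2, the ligand used in stem cell culture, was at 11.3, 17.0, 24.6 and 18.0 CPM in qNSC and at 1.10, 5.19, 6.31 and 5.23 CPM in aNSC, without overlap of the states. Fgf2 was found in at most 23.4% of qNSC cells of a library and Fgf1 in 10.1 to 28.5%.

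The Sprouty genes differed from each other in their patterns. Spry2 was found throughout the stem cell and glial states, at 175, 138, 212 and 87.5 CPM in qNSC, 219, 166, 206 and 143 CPM in aNSC and 117, 73.1, 101 and 67.4 CPM in TAP. In its fitted order (Astro, aNSC, qNSC, OL, TAP, GLU, NB) the only step between neighbours that passed the test was that from TAP to GLU (adjusted p = 0.000137). Spry1 was almost undetected in qNSC, with 1, 2, 1 and 1 UMIs in 102, 731, 316 and 92 cells. In aNSC it was at 29.8, 10.0, 4.58 and 8.45 CPM (54, 131, 66 and 21 UMIs), and in OL at 89.7, 107 and 119 CPM at P2, P12 replicate 1 and P22. Spry1 UMIs were found in 71.9 to 78.7% of OL cells against 0.274 to 1.09% of qNSC cells.

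Spry4 was at 14.9, 10.0, 9.23 and 1.29 CPM in qNSC, at 16.5, 30.1, 23.7 and 7.24 CPM in aNSC and at 43.0, 114 and 103 CPM in OL. OL was the highest state for Spry4 in each of its 3 libraries, and the next neighbours in the fitted order (Astro, aNSC, TAP, qNSC, GLU, NB) were not separated. Etv4 was at 27.5, 2.97, 6.43 and 5.15 CPM in qNSC, where P2 stood above the other libraries, and at 71.6, 39.4, 35.2 and 51.5 CPM in aNSC. Its OL levels were 79.6, 104 and 101 CPM, and its Astro levels 58.3, 60.4 and 75.8 CPM (P12 replicates 1 and 2, P22). Etv5 was at 25.1, 6.50, 12.0 and 2.57 CPM in qNSC, at 57.9, 65.8, 78.6 and 41.0 CPM in aNSC and at 40.4, 38.3, 60.5 and 24.2 CPM in TAP. In each library Etv5 was highest in aNSC of these 3 states, and aNSC, OL, TAP and Astro formed a group of neighbours in its fitted order that were not separated (adjusted p = 0.303 to 0.879).

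The first comparison asked how the pathway differs between quiescent and activated stem cells. UMIs were summed per state and library (at least 20 cells) and tested for a difference by edgeR (quasi-likelihood F test, Benjamini-Hochberg adjustment over all genes), in 1 fit of 25 sums with the library as a block. Of the 10 genes 7 passed the threshold of 0.05, where 54.8% of the 12761 genes tested did (29.6% higher, 25.3% lower in aNSC), so that the number called is not particular to these genes. Fgfr1 fell by 0.73 ± 0.15 (log2, SE), Fgfr2 by 1.49 ± 0.29, Fgf1 by 3.19 ± 0.41 and Fgf2 by 1.97 ± 0.35. Spry1 rose by 4.67 ± 0.69, Etv4 by 2.49 ± 0.36 and Etv5 by 2.49 ± 0.34 on the same scale, each in 4 of 4 libraries. The gates required Egfr to be near 0 in qNSC and expressed in aNSC, and it was at 0 and at 322 to 545 CPM. EGFR feeds the same cascade, and its part in these differences was not tested. The median difference over the members was -0.05, with an all-gene median of 0.04. Fgfr3 (-0.40 ± 0.22, adjusted p = 0.131), Spry2 (0.30 ± 0.18, adjusted p = 0.162) and Spry4 (1.09 ± 0.49, adjusted p = 0.0635) did not pass. As Spry1 rested on 1 or 2 UMIs per library in qNSC, its ratio was also computed per library with counting intervals, and was 49.9 (8.58 to 2005) at P2, 35.4 (9.61 to 295) and 16.4 (2.84 to 656) at P12, and 6.56 (1.06 to 271) at P22. Another scaling (DESeq2 size factors) moved the median of all genes by -0.13 and changed the direction of none of the 7 calls, and without the library block Fgfr1 lost its call (adjusted p = 0.0904).

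**Figure D2:**
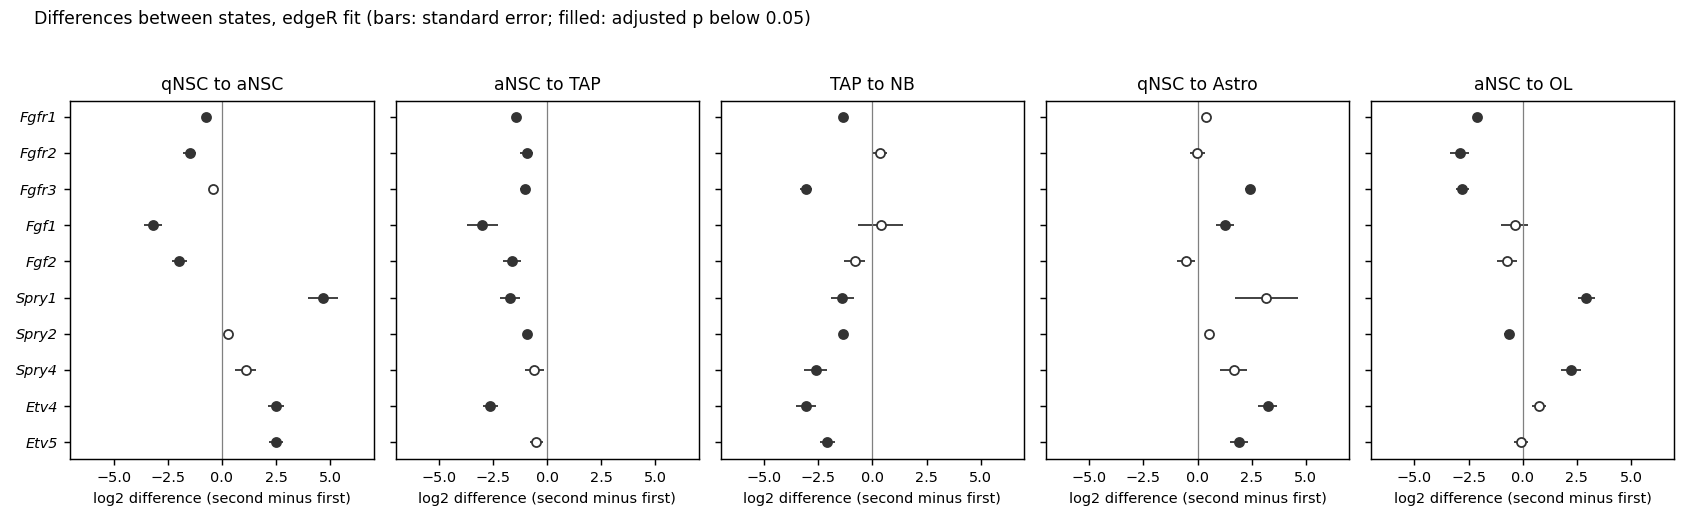
Fitted log2 difference of each gene (second state minus first) in 5 comparisons of states, with bars for the standard error and filled points for an adjusted p below 0.05. From qNSC to aNSC the ligands lie left of 0 and Spry1, Etv4 and Etv5 right of it, and from aNSC to TAP all 10 points lie left of 0.

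Oligodendroglial transcription factors moved with this comparison. Olig1 was at 216 to 913 CPM and Olig2 at 154 to 553 CPM in aNSC, against 4.47 to 34.8 and 0.839 to 16.7 CPM in qNSC, whereas later precursor markers were at or near 0 in aNSC (Cspg4 3.31 to 5.12 CPM, Gpr17 0 to 2.01, Neu4 0 to 1.21). Cells with at least 1 Olig1 or Olig2 UMI made up 90%, 68.2%, 62.6% and 82.8% of aNSC in library order. Etv4 was concentrated in these cells at P12, at 50.2 CPM (45.9 to 54.9) against 7.02 (4.45 to 10.5) in replicate 1 and 46.5 CPM (42.5 to 50.8) against 5.97 (3.83 to 8.88) in replicate 2. Spry4 went the same way, at 36.7 CPM against 10.4 and at 27.5 CPM against 13.9, as did Spry1 (11.5 against 5.50, and 5.86 against 1.24) and Etv5 (76.2 against 34.5, and 93.4 against 40.3). At P22 the Etv4 levels were 57.2 and 7.02 CPM (2 UMIs in 21 cells without Olig UMIs), and Etv5 showed 40.4 and 45.6 CPM. Spry4 was at 7.27 and 7.02 CPM there, and Spry1 at 9.09 and 3.51 CPM. At P2 Spry4 had the reverse order, at 15.3 CPM with and 34.1 CPM without Olig UMIs (4 UMIs in 7 cells). Etv4, Etv5 and Spry1 kept the P12 order at P2. Fgfr1 and Fgfr2 had the opposite order at P12, Fgfr1 with 120 against 159 CPM and 132 against 162 CPM, and Fgfr2 with 28.8 against 51.6 CPM and 32.8 against 70.2 CPM. They kept it at P2, with 63.0 against 145 CPM and 18.3 against 42.6 CPM (7 cells without Olig UMIs). At P22 this order was not seen, with 55.0 against 52.6 CPM for Fgfr1 and 18.6 against 17.5 CPM for Fgfr2. The cells with Olig UMIs were also deeper, with median depths of 19609 against 13781 UMIs in replicate 1.

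**Figure D3:**
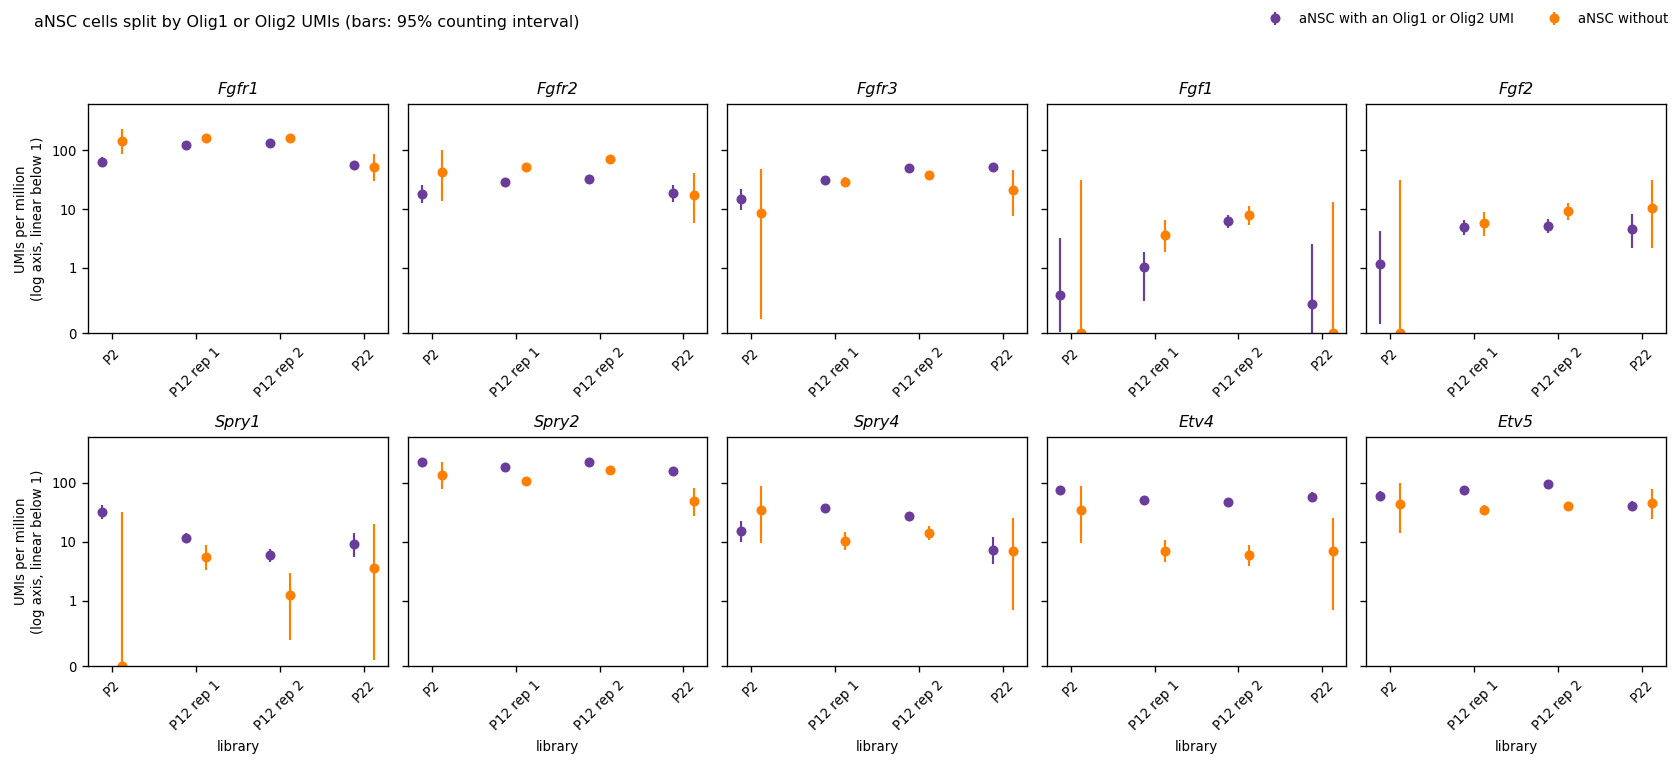
Level of each gene (CPM, log axis that is linear below 1) in aNSC cells with and without an Olig1 or Olig2 UMI, 1 point per library and bars for the 95% Poisson interval. In both P12 libraries Etv4 is near 50 CPM with and below 10 CPM without Olig UMIs, and the P2 points without Olig UMIs rest on 7 cells.

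The comparison was therefore repeated without aNSC and TAP cells that held an Olig1 or Olig2 UMI, a choice made after the levels were seen that left P2 with no aNSC or TAP sum. Of the 10 genes 8 then passed, with 31.6% of all genes. Etv4 no longer passed (-0.20 ± 0.52, adjusted p = 0.819) and Spry4 was at -0.08 ± 0.65, whereas Spry1 (3.30 ± 1.04, adjusted p = 0.0201) and Etv5 (1.64 ± 0.43, adjusted p = 0.00645) still rose. Spry2 now fell by 0.68 ± 0.21 (adjusted p = 0.0161) and Fgfr3 fell by 0.89 ± 0.24 (adjusted p = 0.00797), next to Fgfr1, Fgfr2, Fgf1 and Fgf2, which fell by 0.60, 1.06, 2.38 and 1.52. Leaving out the P2 library alone, with all aNSC cells of the other libraries kept, gave 3.16 for Etv4 (adjusted p = 1.19e-07).

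Of 68 other genes of the pathway, in a list of ligands, co-receptors, transducers, feedback genes and heparan sulfate genes, 50 could be tested between qNSC and aNSC. Of these 29 passed, where 54.8% of all genes did, and 18 rose and 11 fell, with a median of 0.15 beside 0.04 over all genes. Ccnd1, a D-type cyclin induced by the cascade, rose by 3.83, the heparan sulfate sulfatase Sulf1 by 2.40, the sulfotransferase Hs6st2 by 2.17 and the syndecan Sdc3 by 1.64. Sdc4, also a syndecan, fell by 2.29, Flrt1 by 1.63, the intracellular FGF homolog Fgf11 by 1.39 and Sdc2 by 1.26.

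The second comparison asked what changes as activated stem cells become transit-amplifying progenitors. Here 8 of the 10 genes passed and all 8 fell, where 15.0% of all genes passed, 9.89% with a lower and 5.09% with a higher level in TAP. Fgf1 fell by 3.00 ± 0.71, Etv4 by 2.62 ± 0.35, Spry1 by 1.70 ± 0.46, Fgf2 by 1.62 ± 0.43, Fgfr1 by 1.42 ± 0.16, Fgfr3 by 1.03 ± 0.23, Spry2 by 0.95 ± 0.18 and Fgfr2 by 0.95 ± 0.31. The adjusted p-values of Fgfr2 (0.0439), Spry1 (0.0153) and Fgf2 (0.0146) were the largest among these, and the median over the members was -1.23, with -0.01 over all genes. Etv5 (-0.50 ± 0.28, adjusted p = 0.239) and Spry4 (-0.58 ± 0.46, adjusted p = 0.404) did not pass, although Etv5 was lower in TAP in 4 of 4 libraries. The number of calls depended on the setting, over all genes as well. It was 5 without P12 replicate 1 and 3 without P12 replicate 2, where 4.99 and 3.92% of all genes passed. Without the library block it was 3, where 2.63% of all genes passed. When cells with Olig UMIs were left out it was 5, where 20.6% did. Fgfr1, Spry2 and Etv4 kept their calls whichever library was left out and without the block, but when cells with Olig UMIs were left out Etv4 lost its call (-1.58 ± 0.76, adjusted p = 0.147). Of the other pathway genes, Gpc4, a glypican, rose by 1.22, and 7 fell, among them Sulf1 by 2.89, the phosphatase Dusp14 by 1.61, Sdc4 by 1.58 and Fos by 1.28.

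From TAP to NB, the step to young neurons, 7 of the 10 genes fell, where 40.2% of all genes passed, 20.2% lower and 19.9% higher in NB. Etv4 fell by 3.07 ± 0.47, Fgfr3 by 3.06 ± 0.29, Spry4 by 2.62 ± 0.54, Etv5 by 2.07 ± 0.33, Spry1 by 1.38 ± 0.54, Fgfr1 by 1.37 ± 0.18 and Spry2 by 1.35 ± 0.20. Fgfr2 was the receptor that did not follow, with 14.8, 15.2 and 8.89 CPM in NB at P2, P12 replicate 1 and P22 against 9.59, 14.9 and 5.16 CPM in TAP of the same libraries (0.35 ± 0.33, adjusted p = 0.426). Fgf1 (0.38 ± 1.05) and Fgf2 (-0.82 ± 0.50) rested on few UMIs, and Spry1 lost its call (adjusted p = 0.0453) without P12 replicate 1, without P12 replicate 2, without P22 or without the block. NB sums came from 3 libraries, as P12 replicate 2 held 13 NB cells. Of the other pathway genes 13 rose and 13 fell, with the phosphatase Dusp4 (2.67), Fgf14 (2.09), Flrt2 (2.07) and Flrt3 (1.81) the largest rises, and Ccnd1 falling by 4.61, Gpc4 by 3.49, Sdc3 by 2.28 and the decoy receptor Fgfrl1 by 2.06.

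Astrocytes were compared with qNSC because both carry astroglial genes. Of the 10 genes 4 were higher in Astro, where 15.3% of all genes passed, 7.73% higher and 7.59% lower. Fgfr3 was higher by 2.42 ± 0.24, Etv4 by 3.24 ± 0.43, Etv5 by 1.92 ± 0.43 and Fgf1 by 1.26 ± 0.41 (adjusted p = 0.0428), each in 3 of 3 libraries. Fgfr1 (0.37 ± 0.18, adjusted p = 0.178) and Fgfr2 (-0.01 ± 0.33, adjusted p = 0.994) did not pass, nor did Spry2 (0.54 ± 0.21, adjusted p = 0.0811), Spry4 (1.67 ± 0.61, adjusted p = 0.0711), Fgf2 (-0.54 ± 0.43) and Spry1, which had 0, 5 and 0 UMIs in Astro. With P12 alone 7 members passed, where 22.9% of genes did. Without P12 replicate 1 or without P12 replicate 2, 2 members passed in each case, where 6.08 and 6.94% of genes did. Fgfr3 and Etv4 kept values of 2.29 to 2.48 and 2.90 to 3.83 whichever library was left out. Under broad gates 0 passed, where 0.0138% of genes did (2 genes, with 1150 at an unadjusted p below 0.05). With broad gates Fgfr3 was at 0.52 ± 0.45 (adjusted p = 0.849), Etv4 at 0.91 ± 0.62 (adjusted p = 0.770), Etv5 at 0.46 ± 0.74 (adjusted p = 0.959) and Fgf1 at -0.33 ± 0.49 (adjusted p = 0.948). The 6 astrocyte markers that the gates did not use summed to 2557 to 3551 CPM in Astro and 460 to 1594 CPM in qNSC. Astro also held more Olig1 (87.3 to 118 CPM against 4.47 to 34.8 CPM in qNSC), Olig2 (21.2 to 63.2 against 0.839 to 16.7 CPM) and Egfr (97.0 to 203 CPM against 0). Of the activation genes, Mcm2 (0 against 3.91 to 8.95 CPM in qNSC), Mcm6, Cdk4 and Ccnd2 (109 to 153 against 286 to 588 CPM) were instead lower in Astro. The ranges of Fabp7 and Rrm2 overlapped. The gate of qNSC required Egfr to be near 0 and that of Astro did not, whereas the broad gates set it to 0 in both. The part of cells with Olig1, Olig2 or Egfr UMIs in the differences was not tested. Of the other pathway genes Dusp6, the phosphatase of ERK kinases, was higher in Astro by 2.90, Sulf2 by 2.15, Spred3 by 1.40 and Sdc3 by 1.32, and Fgf13 (-1.45), Fos (-0.97) and Ptpn11 (-0.91) were lower.

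Ependymal cells, the multiciliated lining of the ventricle, reached 20 cells per library only under broad gates and at P12 (37 and 78 cells), and were compared with qNSC of the same broad gates. Etv4 had 0 and 1 UMIs in ependymal cells against 4.75 and 6.39 CPM in qNSC, and Etv5 had 3.36 and 2.15 CPM against 6.33 and 9.18 CPM. Fgf1 was at 3.36 and 13.6 CPM against 12.5 and 35.3 CPM, and Fgfr1 at 148 and 192 CPM against 192 and 221 CPM, so that each of the 4 genes was lower in ependymal cells of both libraries. Of the 10 genes 3 passed, all lower in ependymal cells, where 18.0% of all genes did (6.96% lower): Etv4 (-3.97 ± 1.18, adjusted p = 0.0218), Fgf1 (-2.22 ± 0.56, adjusted p = 0.00739) and Fgfr1 (-0.56 ± 0.18, adjusted p = 0.0342). Etv5 did not pass, nor did Fgfr2, Fgfr3, Fgf2, Spry2 and Spry4, which were also lower in ependymal cells of both libraries. Spry1 was higher in them, at 1.68 and 1.43 CPM (1 and 2 UMIs) against 0.48 and 0.18 CPM, and did not pass. Fgfr1 lost its call without P2, without P22, with DESeq2 size factors and with P12 alone. Without the block 1 member passed, where 8.76% of all genes did, and with only these 2 states in the fit 5 did, where 33.0% of all genes passed. Calls over all genes were 61.3% higher in ependymal cells with TMM and 71.8% with DESeq2 size factors, and the 3 members were lower under both. Of 56 other pathway genes tested 3 were higher (Fgf7 by 3.67, Dusp14 by 3.60 and Sulf2 by 2.94) and 4 lower (Sdc3, Fgf13, Spred1 and Hs2st1).

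Because Spry1, Spry4 and Etv4 were high in OL, these cells were set against aNSC, a comparison added after the levels were seen and therefore a description of the pattern that chose it. OL had lower receptors, with differences of -2.91 ± 0.44 (log2, SE) for Fgfr2, -2.79 ± 0.32 for Fgfr3 and -2.11 ± 0.19 for Fgfr1, and higher Spry1 (2.93 ± 0.40) and Spry4 (2.23 ± 0.46), while Etv5 (-0.09 ± 0.31, adjusted p = 0.863) and Etv4 (0.75 ± 0.32, adjusted p = 0.0719) did not pass. Fgf1 and Fgf2 did not pass either, lower in OL by 0.38 ± 0.63 (adjusted p = 0.680) and 0.72 ± 0.46 (adjusted p = 0.229). Etv4 passed with DESeq2 size factors (0.88) and without P2 (1.19). With Spry2 (-0.66 ± 0.20), 6 members passed the threshold, as did 37.4% of all genes (16.1% higher, 21.3% lower in OL). Over all genes 43.1% of the calls were higher in OL with TMM and 54.7% with DESeq2 size factors, a shift of the median by 0.13. Spry2 was no longer called without P2 or without P12 replicate 1, nor Fgfr2 under broad gates (-1.02). In cells thinned to 5000 UMIs, 79.8 to 93.6% of OL cells had no UMI of a receptor among Fgfr1, Fgfr2 and Fgfr3, yet 80.3 to 83.7% had a UMI of at least 1 of the 5 targets. In aNSC the shares were 32.9 to 56.5% without a receptor UMI and 60.7 to 70.9% with a target UMI. In qNSC they were 15.9 to 37.1% and 36.0 to 65.3%. Of the other pathway genes 13 were higher in OL, with Sulf2 (6.44), Flrt1 (3.48), Flrt3 (2.92) and Fgf14 (2.80) leading, and 8 were lower, with Gpc4 (-3.52), Sdc4 (-3.05), Shc1 (-1.40) and Mapk3 (-1.35) leading. Pdgfra, a gate gene of OL, also signals through this cascade, and its part in the levels of the targets was not tested.

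Pallial and subpallial qNSC were told apart by the study's regional genes and compared. Only 4 of the 10 genes had enough UMIs, and 0 passed, where 1.15% of 7740 genes did (0.401% higher and 0.749% lower in pallial cells, 89 genes in all, with 538 at an unadjusted p below 0.05 and 3 by DESeq2). The differences, pallial minus subpallial, were 0.23 ± 0.22 for Fgfr1, -0.19 ± 0.22 for Fgfr2, -0.02 ± 0.35 for Fgfr3 and -0.45 ± 0.21 for Spry2 (unadjusted p = 0.0404, adjusted p = 0.668). At P12 replicate 1, with 267 pallial and 54 subpallial cells, Spry2 was at 116 against 201 CPM and Fgfr1 at 221 against 169 CPM. At P2, with 41 and 20 cells, Spry2 was at 167 against 174 CPM and Fgfr1 at 107 against 118 CPM, so that Fgfr1 had the opposite order there. Fgfr3 was at 32.6 against 18.7 CPM at P2 and at 40.2 against 51.6 CPM in P12 replicate 1. In P12 replicate 2, with 16 subpallial cells, Fgfr3 was at 40.3 against 102 CPM. At P22, with 13 pallial cells and 1 UMI in them, it was at 9.20 against 63.7 CPM. The fit left 1 residual degree of freedom, and under broad gates 4 of 7 tested members were lower in pallial qNSC (Spry4 -1.06, Fgfr3 -0.88, Fgfr2 -0.52 and Spry2 -0.51), where 6.14% of genes passed.

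**Figure D4:**
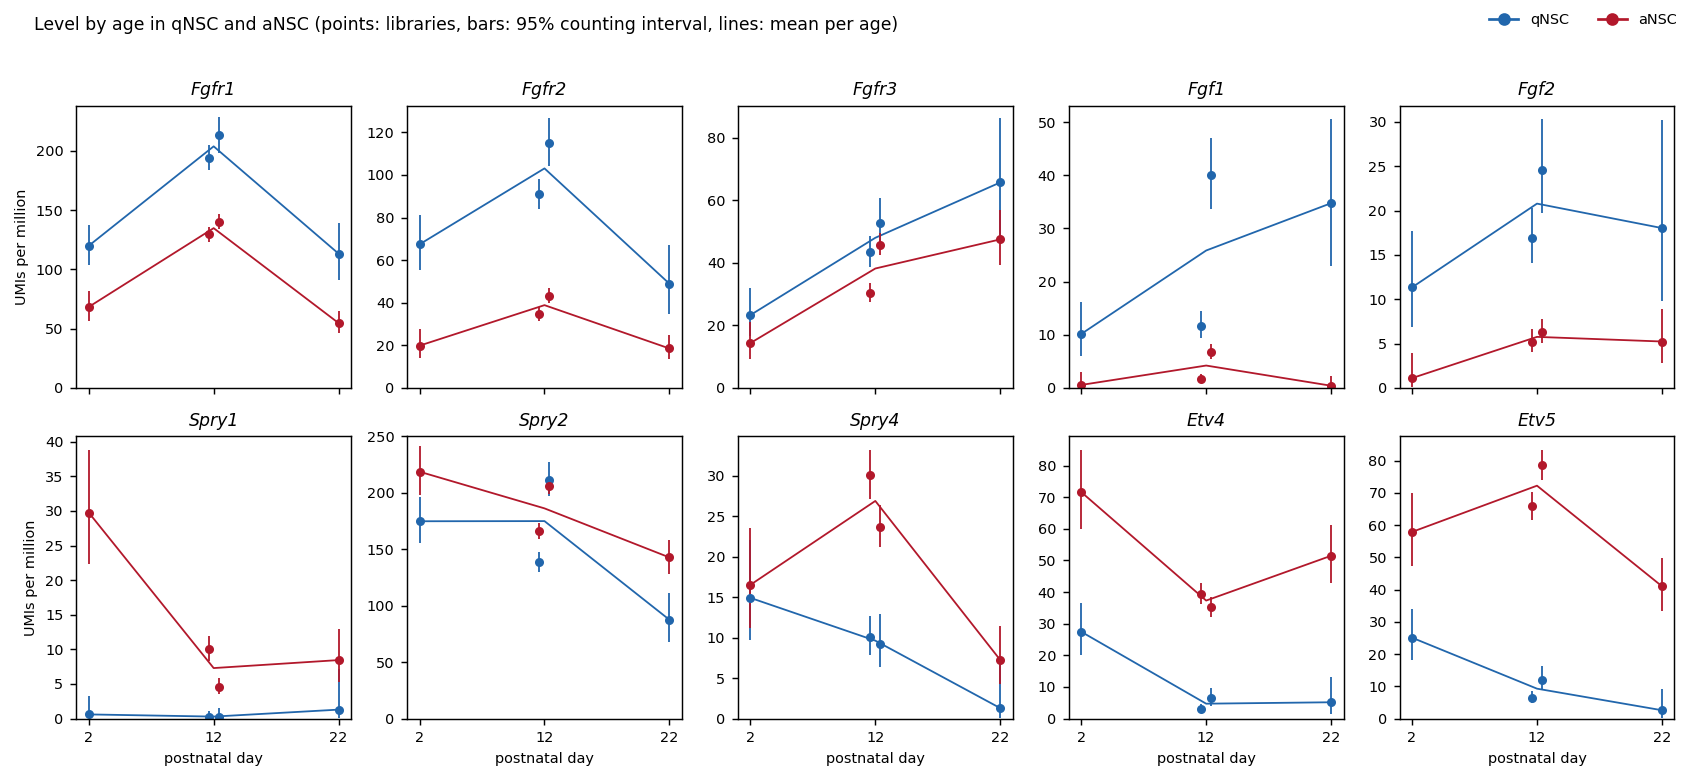
Level of each gene (CPM, linear axis from 0) in qNSC and aNSC against postnatal day, with 1 point per library, bars for the 95% Poisson interval and lines through the mean per age. Fgfr3 points rise with age in both states, Etv4 and Etv5 in qNSC are highest at P2, and Fgfr1 and Fgfr2 are highest at P12. Pallial and subpallial cells are pooled in each point, in a mix that differed between libraries.

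With age, Etv4, Etv5 and Spry4 were lower and Fgfr3 higher at P22 than at P2 in qNSC, but no change passed the test. A straight line over age in 4 libraries gave differences from P2 to P22 of -3.28 ± 0.79 for Etv5 (unadjusted p = 0.00377, adjusted p = 0.554), -3.55 ± 1.13 for Etv4, -2.53 ± 0.89 for Spry4 and 1.47 ± 0.53 for Fgfr3. In qNSC 0 of 9 tested members passed, where 0.0165% of genes did, with 681 genes at an unadjusted p below 0.05 and 44 genes, none of them a member, by DESeq2. The qNSC sums rested on 42, 46, 43 and 2 UMIs of Etv5 and on 25, 71, 33 and 1 UMIs of Spry4. The P2 qNSC also differed from the other libraries in their quiescence genes and Fabp7. The regional mix of qNSC changed too, from 41 pallial and 20 subpallial cells at P2 to 13 and 27 at P22. Pallial qNSC had Fgfr3 at 32.6, 40.2, 40.3 and 9.20 CPM in library order (1 UMI at P22). Subpallial qNSC had it at 18.7, 51.6, 102 and 63.7 CPM. The part of this mix in the differences was not tested. In aNSC 0 of 10 passed (0.015% of genes, 342 unadjusted, 9 by DESeq2), with Fgfr3 higher by 1.63 ± 0.55 and Spry1 at -2.05 ± 0.89. In TAP 0 of 8 passed (0.00869% of genes, 238 unadjusted, 7 by DESeq2).

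With age as 3 levels, which leaves 1 residual degree of freedom from the P12 pair, 5 members passed in qNSC between P2 and P22, where 5.13% of genes did, and 2 in aNSC, where 1.87% did. In qNSC these were Fgfr3 (1.47), Fgf1 (1.75), Spry4 (-3.52), Etv4 (-2.43) and Etv5 (-3.29), and in aNSC Fgfr3 (1.68) and Spry1 (-1.86). Fgfr3 and Fgf2 had higher levels at P22 than at P2 in both stem cell states, Fgfr3 at 65.7 against 23.3 CPM in qNSC and 47.5 against 14.3 CPM in aNSC. For Fgf2 the counting intervals overlapped. In qNSC it was at 18.0 (9.85 to 30.2) against 11.3 CPM (6.83 to 17.7), and in aNSC at 5.23 (2.78 to 8.94) against 1.10 CPM (0.133 to 3.98). Fgfr1 and Fgfr2 had their highest qNSC levels in the P12 libraries. The P12 libraries were also processed with another Cell Ranger version (3.1.0, against 5.0.1 at P2 and P22, by the file headers), and age, library and version cannot be told apart here. Leaving out P22 gave 2 called members in qNSC (Etv4 and Etv5) and 4 in aNSC, where 23.8 and 14.6% of genes passed, and the difference to P22 is then an extrapolation of the line. Leaving out P2, which extrapolates to P2, gave 0 and 2, where 7.50 and 7.87% of genes passed.

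Whether the difference between qNSC and aNSC itself changed with age was tested as an interaction. Etv5 differed by 1.24 (log2) at P2, 3.23 and 2.67 at P12 and 3.85 at P22, and Etv4 by 1.42, 3.53, 2.38 and 3.27, so that P2 had the smallest difference for both. The interaction was 3.36 ± 0.68 for Etv5 (unadjusted p = 0.000986, adjusted p = 0.232), 2.79 ± 0.86 for Etv4 (adjusted p = 0.438) and 2.51 ± 0.76 for Spry4 (adjusted p = 0.429), and 0 of 10 members passed. Over all genes 0.00875% passed, 1048 genes had an unadjusted p below 0.05, and DESeq2 called 35 genes and no member. Without the filter on low counts Etv4 and Etv5 passed, where 0.980% of all genes did.

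Within single cells, the shares of aNSC with an Etv5 UMI were compared between cells with and without a receptor UMI. In thinned aNSC of P12 replicate 1, 24.3% (95% interval 16.5 to 33.5%) of cells with an Fgfr3 UMI had an Etv5 UMI, against 23.1% (19.8 to 26.8%) of cells without. The shares were 25.9 and 25.2% in replicate 2, and for Fgfr1 24.4 against 22.4% in replicate 1 and 24.3 against 26.3% in replicate 2. At P22 they were 27.8% (9.69 to 53.5%, of 18 cells) with and 11.5% (6.11 to 19.3%) without an Fgfr1 UMI, and 21.2% (8.98 to 38.9%, of 33 cells) with and 11.2% (5.52 to 19.7%) without an Fgfr3 UMI, intervals that overlap. At P2 they were 28.6% of 7 cells with and 17.7% of 62 cells without an Fgfr3 UMI, and 17.4 and 19.6% for Fgfr1. In qNSC of P12 replicate 1, Etv5 was found in 4.21% (2.56 to 6.50%) of cells with and 1.85% (0.602 to 4.25%) of cells without an Fgfr1 UMI, and in replicate 2 the order was the reverse, at 1.98 and 5.66%. At 5000 UMIs a cell without a receptor UMI may still express the receptor, so that these shares bound little. UMIs of 2 or 3 receptors in 1 cell were found in 17.8 to 37.0% of qNSC, 8.20 to 18.4% of aNSC and 0 to 4.26% of TAP.

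Outside the neural lineage, Spry1 and Etv5 were found in microglial cells. In the 71 microglial cells of P22, Spry1 was at 117 CPM (83 UMIs, found in 47.9% of cells, 95% interval 35.9 to 60.1%) and Etv5 at 70.6 CPM (50 UMIs, in 42.3% of cells), while Fgfr1, Fgfr2 and Fgfr3 together gave 1 UMI. The few microglial cells of P12 held 8 Spry1 and 4 Etv5 UMIs in 8 cells of replicate 1, without receptor UMIs, and 11 Spry1 and 15 Etv5 UMIs in 10 cells of replicate 2, together with 5 Fgfr1 and 3 Fgfr2 UMIs. Endothelial cells of P12 replicate 2 had Spry1 UMIs in 34.8% of 23 cells (39.5 CPM) and 10 Fgfr1 UMIs. These states had 1 library of at least 20 cells each, so that the values have no replicate check.

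**Figure D5:**
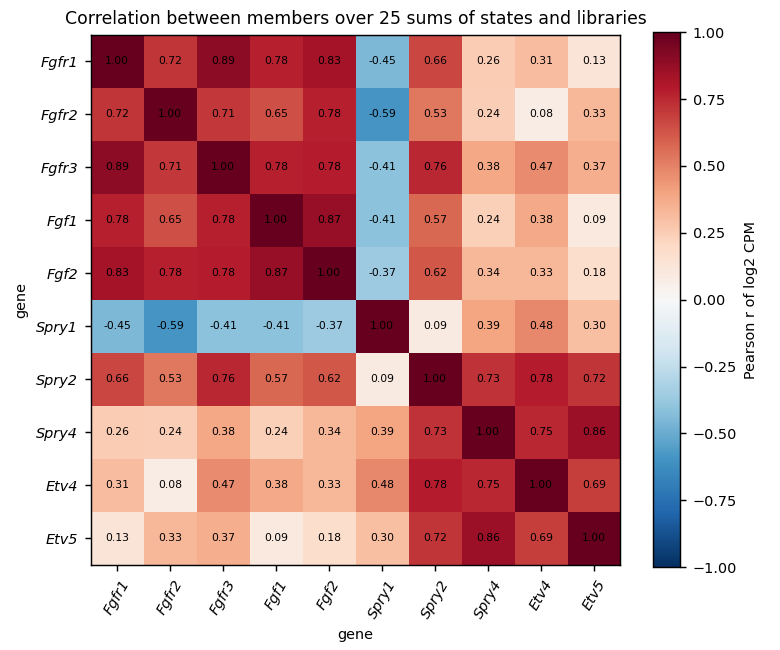
Pearson correlation of log2 CPM between each pair of the 10 genes over the 25 sums of 7 states and 4 libraries. Receptors and ligands form 1 block (0.65 to 0.89), Spry2, Spry4, Etv4 and Etv5 another (0.69 to 0.86), and Spry1 is negative with all receptors and ligands. Spry2 is also positive with the receptors and ligands (0.53 to 0.76).

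Over the 25 sums the receptors and ligands went together, with Fgfr1 and Fgfr3 at a Pearson correlation of 0.89 and Fgf1 and Fgf2 at 0.87. Spry4 and Etv5 (0.86), Spry2 and Etv4 (0.78) and Spry4 and Etv4 (0.75) formed the other group, and Spry1 was lowest with Fgfr2 (-0.59). The groups were not fully apart, as Spry2 also went with Fgfr3 (0.76), Fgfr1 (0.66) and Fgf2 (0.62). Sums of 1 library share animals and depth, and sums of 1 state share their gate, so these values are descriptions. Among 12761 genes, Fgfr3 was most like the GABA transporter Slc6a11 (0.97), and then Slc20a2 and Paqr8 (both 0.96). Fgfr1 was most like Slco1c1 (0.97), a thyroid hormone transporter, Fnbp1 (0.97) and Gem (0.96), and Fgfr2 like Irf9 (0.93), Tacc1 and Cachd1 (both 0.90). Fgf1 was nearest to Tspan7 (0.95), Prnp and Steap3, and Fgf2 to Sirpa (0.95), Gbp7 and Lrp4. Spry1 was nearest to Kcnk12 (0.87), Igfbp3 and Rph3a, Spry2 to Zfp36l1 (0.90), Ptprz1 and Rest, and Spry4 to Abtb2 (0.92), Bmp7 and Shc3. Etv4 was nearest to Cdc42ep1 (0.92), Fzd9 and Cbr3, and Etv5 to Sall3 (0.88), Hhip and Pid1.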

How the data were processed

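Single-cell libraries of the dorsal V-SVZ (1 at P2, 2 at P12, 1 at P22) were analysed from the deposited matrices of UMI counts per gene and cell, which the authors made with Cell Ranger on GRCm38. The submitters' processing notes name Cell Ranger 3.1.0 and Seurat 3, and the file headers give 3.1.0 for P12 and 5.0.1 for P2 and P22. A cell was kept if it had between 2000 and 8000 genes with a UMI and no more than 10% of its UMIs from mitochondrial genes. Doublets were scored with Scrublet (3 to 108 cells called per library) and left in, and an alternative left out the 5% highest scores. States followed the study's marker gates, with added gates for glutamatergic, ependymal, endothelial and microglial cells. Counts were summed per state and library (at least 20 cells) and tested with edgeR 4.0.16 (TMM, quasi-likelihood, library as a block, R 4.3.3) over all genes that passed its low-count filter, with Benjamini-Hochberg adjustment. DESeq2 1.42.0 was an alternative. Shares were also computed after thinning to 5000 UMIs, intervals are exact at 95%, and a count of 0 is bounded by 3 counts. States of 1 library come from the same pooled animals, which is where the block comes from, and p-values measure the spread between these libraries only. The 10 genes and the gene lists were chosen with earlier results of these data known. All 10 members are named in the comparisons of states. For pallial and subpallial qNSC the members tested are named, and for age and its interaction only some. Also named are, for each member, the 3 genes of highest correlation, and at most 4 other pathway genes per direction by size of the difference. The comparison of aNSC with OL, the broad gates for ependymal cells and the exclusion of cells with Olig1 or Olig2 UMIs were chosen after seeing the data. Scripts were tested on simulated data. Python 3.11.15 and scanpy 1.11.5 were used.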

Additional observations from a re-analysis of the deposited data

Results flagged for a closer look

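The differences below had another direction in 1 library than in the others, and whether the libraries differ was not tested. From aNSC to TAP, Spry4 differed by -0.64 (log2) at P2, -0.96 and -0.72 in P12 replicates 1 and 2, and 0.44 at P22. From TAP to NB, Fgf2 differed by 0.0038 at P2, -0.84 in P12 replicate 1 and -0.79 at P22. Between aNSC and OL, Fgf1 differed by -0.50 at P2, 0.23 in P12 replicate 1 and 1.54 at P22, and Etv5 by -0.66, 0.092 and 0.12 in the same order.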

How the results depend on the processing

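The number of members past the threshold depended on the setting in several comparisons, and apart from settings that hold fewer cells or libraries the cause was not tested. From aNSC to TAP, 8 (15.0% of all genes) became 5 without cells holding Olig1 or Olig2 UMIs (20.6%). It became 3 with no replicate block, that is, no pairing by library (2.63%), and 3 to 9 when single libraries were left out (3.92 to 20.3%). Against Astro, 4 (15.3% of all genes) became 0 with broad gates (0.0138%), 7 with P12 alone (22.9%) and 2 to 6 without single libraries (6.08 to 17.5%). Against ependymal cells, 3 (18.0% of all genes) became 1 with no replicate block (8.76%) and 5 with only both states in the fit (33.0%). It became 2 without P2 (18.4%) or P22 (16.9%). Pallial against subpallial qNSC gave 4 with broad gates, and 0 without P12 replicate 2 or P22, each of which held a sum of only 1 of the regions. Leaving out P2 or P12 replicate 1, which held both, leaves no residual degrees of freedom and was not run. For age, qNSC gave 5 and aNSC 2 with age as 3 levels, and leaving out libraries gave 0 to 2 in qNSC, 0 to 4 in aNSC and 0 to 1 in TAP. The interaction gave 2 without the low-count filter (0.980% of all genes) and 0 to 2 without single libraries (0.0184 to 6.36%). The block changed no other count by over 1.5 times. Directions turned as follows. From qNSC to aNSC without Olig UMIs, Spry2 was -0.68, Spry4 -0.084 and Etv4 -0.20. From TAP to NB, Fgfr2 was -0.13 with no block, and Fgf1 -0.71 without high doublet scores, -1.82 with broad gates, -0.19 with no block and -0.018 to 0.72 without single libraries. Against Astro with broad gates, Fgfr1 was -0.35 and Fgf1 -0.33, and Fgfr2 was 0.016 with DESeq2 size factors, 0.23 with no block, 0.13 with P12 alone, 0.18 with both states alone and -0.41 to 0.10 without single libraries. Spry1 there ran from -3.88 to 3.79. Against OL, Etv5 was 0.045 with DESeq2 size factors, 0.064 with DESeq2, 0.033 without high doublet scores and -0.21 to 0.32 without single libraries, and Fgf1 ran from -0.66 to 0.33. For pallial qNSC, Fgfr2 was 0.16 and Spry2 0.0026 with no block, and Fgfr3 0.16 with DESeq2 and 0.0022 without the filter. With age in qNSC and single libraries left out, Etv4 ran from -5.60 to 0.71 and Fgfr1 from -1.38 to 1.18.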
